A study of Mus musculus with 19 samples.

Results

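Pancreatic islets of Nnat+/-p-Light mice were compared with islets of wild-type (WT) littermates at 6 weeks of age, with 3 mice in each group. These 6 libraries were chosen by their labels alone, out of 19 in the series, and no measured value entered the choice. All 6 mice were males from a cross of FVBN/J and C57BL6/J. Light mice carried a whole-body deletion on the paternal copy of Nnat (genotype Nnat+/-p) and had not overgrown (phenotype light). WT mice carried no deletion, and their labels give the phenotype light as well. The 3 other 6-week mice were Nnat+/-p-Heavy males of the same cross, with the same deletion and the phenotype heavy. They entered the fit, where they helped to estimate the spread, but not the comparison. The question was what the loss of paternal Nnat leaves as it is, and what differs, in islets of animals without overgrowth.

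Nnat encodes neuronatin, a small proteolipid of the endoplasmic reticulum (ER) membrane. The gene is imprinted, so that RNA is made from the paternal copy, and it is abundant in neuroendocrine cells, among them the beta cells that make insulin. Neuronatin has been tied to ER calcium handling and to the signal peptidase step of preproinsulin, in which the signal peptide is removed as the chain enters the ER. Islets also hold alpha, delta and PP cells (glucagon, somatostatin and pancreatic polypeptide), endothelium, stroma and macrophages, and isolated islets carry some exocrine acinar and duct cells.

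Counts on genes came to between 9159729 and 13083247 per Light or WT mouse. The 2 insulin genes took 26.9%, 26.3% and 27.4% of the counts in WT mice 1, 2 and 3 and 22.8%, 20.2% and 27.3% in Light mice 1, 2 and 3, and the mouse order is the same in every list of values here. The 6 erythroid marker genes looked for were too low to be tested. Levels are given in CPM, which are counts scaled to a common library size of 1000000, and log2 fold changes are Light over WT with 95% intervals that are not adjusted for the number of genes. One library stood apart from its label. On the first principal component of log2 CPM, which held 46.9% of the variance, WT 1 lay at 25.5 among the Light mice (23.1, 18.9 and 14.6), while WT 2 and WT 3 lay at -36.5 and -45.5. The median absolute log2 difference across genes was 0.155 between WT 1 and Light 1, below every other Light and WT pair, and 0.210 and 0.228 between WT 1 and its own group. WT 1 had the Nnat level of a WT mouse, so genotype and label match. Results are given with WT 1 and, where WT 1 decides them, without. WT 1 was picked out on these same values, so counts and p-values without it may be too favourable and are given as a description.

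**Figure D1:**
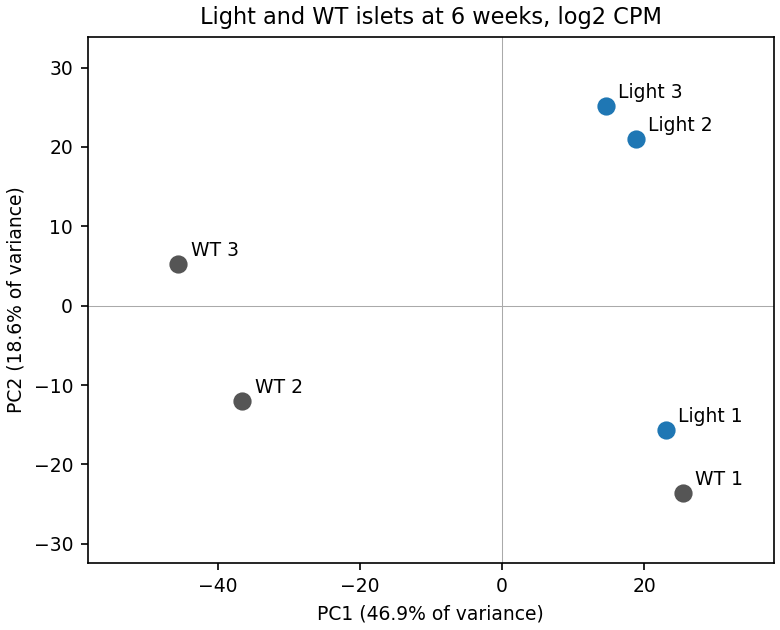
The first 2 principal components of log2 CPM in the 6 mice, with Light mice in blue and WT mice in grey, and the share of variance on each axis. WT 1 lies at 25.5 on PC1, beside the 3 Light mice, and WT 2 and WT 3 lie at the other end, at -36.5 and -45.5.

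Nnat itself separated the genotypes completely. It lies on chromosome 2 from 157560078 to 157562522 (GRCm38) and had 345, 384 and 254 counts in WT mice and 3, 2 and 0 counts in Light mice, or 30.1 ± 2.24 CPM (SD, n = 3) against 0.137 ± 0.119 CPM (SD, n = 3). Its log2 fold change of Light over WT was -7.64 (95% interval -9.11 to -6.17), with an adjusted p of 1.34e-05 (edgeR quasi-likelihood F test, Benjamini-Hochberg method, 16463 genes tested). The only other gene past an adjusted p of 0.05 was Gm23134, a miRNA gene model inside Nnat on the opposite strand. It had 50, 57 and 44 counts in WT mice and 0 in each Light mouse, which is at least 18.3-fold lower against a floor of 3 counts per Light mouse (edgeR adjusted p = 0.0264). The library kit does not mark strand, so its reads and those of Nnat cannot be told apart. These 2 genes are 0.0121% of the genes tested.

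Genes around Nnat had no call, like nearly all genes tested. Blcap, whose transcription unit overlaps Nnat on the other strand, had 766, 739 and 608 counts in WT mice and 1076, 677 and 824 in Light mice, a log2 fold change of 0.13 (95% interval -0.07 to 0.33). Src, a tyrosine kinase gene 88216 bases away, had a log2 fold change of 0.08 (95% interval -0.26 to 0.41). Of 114 genes tested within 5 Mb of Nnat, leaving out Nnat and Gm23134, 0 passed the edgeR test, where 0.0121% of all genes did. An unadjusted edgeR p under 0.05 was found for 5 of the 114 (4.39%), against 10.0% of all genes. In 13 of them, or 11.4%, the 3 Light mice lay wholly above or below the 3 WT mice, against 16.0% of all genes tested.

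Most genes were measured closely enough to bound the difference. The 95% interval of the Light over WT fold change lay inside 2-fold in either direction for 12606 genes (76.6%), and inside 1.5-fold for 8527 genes (51.8%). Among genes with a mean count between 100 and 1000 in these 6 mice, 95.8% had an interval inside 2-fold, and among those under 100 counts 46.8% had. The median absolute log2 fold change was 0.16 over all genes, and 50.4% lay above 0. In the median over genes the spread within the groups was alike, with a median SD of log2 CPM of 0.173 in WT and 0.165 in Light mice. The SD was larger in WT for 53.7% of genes. Single genes differed both ways: Mafa had an SD of 107 CPM in WT and 36.0 CPM in Light mice, and Gcg of 203 and 6163 CPM.

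**Figure D2:**
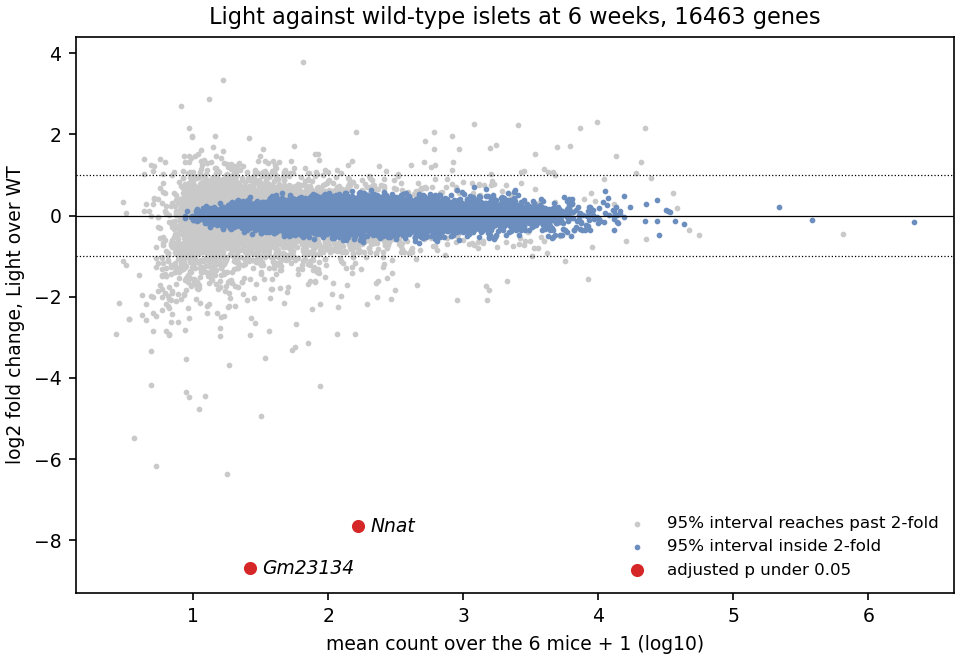
Log2 fold change of Light over WT against the mean count of each gene (log10 axis), 16463 points. Blue genes have a 95% interval inside 2-fold (dotted lines) and grey genes do not, and the 2 red genes, Nnat and Gm23134, have an adjusted p under 0.05.

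The ER machinery that neuronatin is tied to stayed within narrow bounds, as did most genes with a mean count of 100 or more. All 24 tested genes of the signal peptidase and translocon list had an interval inside 2-fold, as did all 24 N-glycosylation genes and all 28 ER-to-Golgi transport genes. The median log2 fold change was 0.06, 0.09 and 0.07 in these lists, and 0 genes of the 3 lists passed the edgeR test or DESeq2. An unadjusted edgeR p under 0.05 was found for 3 signal peptidase and translocon genes, all higher in Light mice (4.75% of all genes were), for 4 N-glycosylation genes higher and 1 lower, and for 2 ER-to-Golgi genes each way. In the same order of lists, 16.7%, 29.2% and 25% of the genes lay wholly above WT, against 8.13% of all genes. Wholly below WT lay 4.17%, 8.33% and 14.3%, against 7.92% of all genes. Sec11c, a catalytic subunit of signal peptidase, was at 165, 140 and 157 CPM in WT mice and at 181, 213 and 210 CPM in Light mice. Its log2 fold change was 0.39 (95% interval 0.18 to 0.60, edgeR adjusted p = 0.431), and each Light mouse was above each WT mouse. Sec61b, a subunit of the translocon channel, had a log2 fold change of 0.20 and Spcs3, another signal peptidase subunit, of 0.17, both again without overlap of the groups. Of the 19 ER calcium genes tested, 18 had an interval inside 2-fold. Itpr2, an ER calcium release channel, was the other, with a log2 fold change of -0.88 (95% interval -1.38 to -0.39), and its relative Itpr1 had -0.42, with each Light mouse below each WT mouse in both. In all, 4 of the 19 lay wholly below WT (21.1%, against 7.92% of all genes) and 1 wholly above.

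Chaperones of the unfolded protein response lay slightly above 0, with 27 of 37 genes higher in Light mice and a median log2 fold change of 0.11. None of the 37 passed the edgeR test, and DESeq2 called 1 of them, Ero1l. An unadjusted edgeR p under 0.05 was found for 8 higher and 2 lower genes, against 4.75% and 5.26% of all genes. Of the 37, 7 lay wholly above WT (18.9%, against 8.13% of all genes) and 1 wholly below. Hspa5 (BiP), the main ER chaperone, was at 2539, 1909 and 1691 CPM in WT mice and 2526, 2884 and 2602 CPM in Light mice, so that WT 1 lay among the Light values. The 2 ER oxidases, which form disulphide bonds, stood on opposite sides of 0. Ero1l was at 119, 76.3 and 79.9 CPM in WT and 133, 157 and 173 CPM in Light mice, a log2 fold change of 0.75 (95% interval 0.41 to 1.09). Ero1lb, the form enriched in beta cells, was at 736, 1090 and 1203 CPM in WT and 658, 547 and 573 CPM in Light mice, a log2 fold change of -0.77 (95% interval -1.31 to -0.23). Neither passed the test (edgeR adjusted p = 0.431 and 0.432), and neither overlapped between the groups.

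Beta cell identity genes were lower in Light islets as a group, with no single gene called. All 18 genes of the beta cell list lay below 0, against 49.6% of all genes, with a median log2 fold change of -0.42. In 11 of the 18 each Light mouse was below each WT mouse, against 7.92% of all genes, and 8 of the 18 had an unadjusted edgeR p under 0.05 and a lower level, against 5.26%. DESeq2 called 0 of them. Mafa, a transcription factor of mature beta cells, was at 164, 363 and 330 CPM in WT mice and at 134, 79.8 and 66.2 CPM in Light mice, a log2 fold change of -1.61 (95% interval -2.42 to -0.80, edgeR adjusted p = 0.431). Slc30a8, the zinc transporter of insulin granules, was at 401, 816 and 874 CPM in WT and 366, 281 and 316 CPM in Light mice. In both genes the lowest WT mouse was WT 1, which lay closer to the highest Light mouse than to WT 2 or WT 3.

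Slc2a2, the glucose transporter GLUT2, was at 345, 531 and 598 CPM in WT and 306, 244 and 226 CPM in Light mice, a log2 fold change of -0.93 (95% interval -1.57 to -0.28). Prlr, the prolactin receptor, was at 149, 219 and 242 CPM in WT and 121, 117 and 115 CPM in Light mice, a log2 fold change of -0.78 (95% interval -1.28 to -0.29). The same order held for Ucn3, a peptide of mature beta cells (-0.80), Pdx1, the transcription factor of pancreas and beta cell fate (-0.55), and Nkx6-1, a further beta cell factor (-0.40). Among the hormones, Ins1 had a log2 fold change of -0.44, close to the list's median, with overlapping groups. Ins2, at -0.17, and Iapp, which encodes amylin, at -0.11, were nearer to 0, also with overlapping groups. The median of the beta cell list ranged from -0.57 to -0.35 when each Light or WT mouse was left out in turn, and it was -0.57 without WT 1. In bulk islets, fewer beta cells and less of these RNAs per beta cell cannot be told apart.

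Other lists of beta cell function, which share Mafa, Slc2a2, Slc30a8 and a few more genes with the beta cell list, differed from WT by less in the median but lay wholly below WT more often than the 7.92% of all genes. Of 19 islet transcription factors, 15 were below 0 and 5 wholly below WT, 18 had an interval inside 2-fold, and the median log2 fold change was -0.15. Of 28 glucose sensing and exocytosis genes, 20 were below 0 and 8 wholly below WT, 25 had an interval inside 2-fold, and the median was -0.14. None of these genes passed the edgeR test or DESeq2, and an unadjusted edgeR p under 0.05 with a lower level was found for 4 and 2 of them, or 21.1% and 7.14%, against 5.26% of all genes. Abcc8, a subunit of the ATP-sensitive potassium channel, had a log2 fold change of -0.15. Of 20 granule and prohormone processing genes, 17 were inside 2-fold, 5 were wholly below WT and 2 wholly above. Pcsk2, a convertase that cuts prohormones, was at 2388, 3211 and 3192 CPM in WT and 2083, 2020 and 2164 CPM in Light mice, a log2 fold change of -0.49 (95% interval -0.86 to -0.11). Vgf, a secreted granule peptide, was on the other side of 0, at 80.0, 20.3 and 22.3 CPM in WT and 82.5, 117 and 109 CPM in Light mice, a log2 fold change of 1.32 (95% interval 0.40 to 2.24). WT 1 stood at the Light level for this gene. Genes normally silent in beta cells did not stand higher in Light islets, with 12 of 16 below 0, and the groups overlapped in all 16.

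The lists of the other endocrine cells had medians near 0, though some members lay apart. The median log2 fold change was 0.04 in the alpha cell list (15 genes tested), 0.04 in the delta cell list (11 genes) and 0.05 in the PP and epsilon cell list (7 genes). Of the 15 alpha cell genes, 4 lay wholly below WT (26.7%, against 7.92% of all genes) and 1 wholly above. An unadjusted edgeR p under 0.05 was found for 3 lower alpha cell genes (20%, against 5.26% of all genes) and 1 higher. Of the 11 delta cell genes, 2 lay wholly below WT (18.2%) and 0 wholly above. Gcg, which encodes glucagon, was at 17551, 17783 and 17956 CPM in WT mice and at 15964, 18324 and 27621 CPM in Light mice, so the higher Light mean came from Light 3. Ppy, which encodes pancreatic polypeptide, was at 866, 1739 and 1843 CPM in WT and 2800, 2752 and 2921 CPM in Light mice, a log2 fold change of 0.93 (95% interval 0.02 to 1.84) without overlap.

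Glycolysis and hypoxia genes stood higher in Light islets. Of 28 tested, 12 lay wholly above WT, against 8.13% of all genes, and the median log2 fold change was 0.33. None passed the edgeR test, 13 had an unadjusted p under 0.05 with a higher level, against 4.75% of all genes, and DESeq2 called 4 (Tpi1, Pgk1, Eno1 and P4ha1). The glycolytic enzyme genes Tpi1, Gapdh, Pgk1, Eno1, Aldoa, Gpi1, Pgam1 and Pfkp had log2 fold changes between 0.43 and 0.83, with each Light mouse above each WT mouse in all 8. Tpi1 and Pgk1 were named for not overlapping, and the others after their values were seen, so this shared order follows from the choice. The hexokinase gene Hk2 had a log2 fold change of -0.35, with 8 to 15 counts per Light or WT mouse and overlapping groups. Pgk1, phosphoglycerate kinase, was at 35.5, 23.9 and 28.6 CPM in WT and 41.5, 52.2 and 59.8 CPM in Light mice, a log2 fold change of 0.80 (95% interval 0.40 to 1.20, edgeR adjusted p = 0.431). P4ha1, a collagen prolyl hydroxylase subunit that hypoxia raises, was at 75.6, 57.3 and 48.7 CPM in WT and 87.2, 92.6 and 102 CPM in Light mice. Tpi1, triose phosphate isomerase, was at 205, 138 and 151 CPM in WT and 237, 247 and 276 CPM in Light mice. In all 3 genes WT 1 was the highest WT mouse, though below the lowest Light mouse.

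Not every member of the list was higher, and 10 of the 28 lay below 0. Vegfa, the vascular growth factor, had a log2 fold change of -0.11 and Kdm3a, a histone demethylase, of -0.20, both with Light mice wholly below WT, while Car9, a carbonic anhydrase, had -1.33 with overlapping groups. Ldha, the lactate dehydrogenase that beta cells normally keep low, had -0.11, and its sign turned when WT 3 was left out (0.44). The median of the list was 0.34 without WT 1 and ranged from 0.24 to 0.37 when each Light or WT mouse was left out in turn.

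The promoters of the 3 genes of this list with the smallest p are shown because these genes stood together without an edgeR call. They are the 250 bases before the RefSeq start, 5′ to 3′ on the gene's strand, in GRCm38.p6. Capitals mark ACGTG or GCGTG on either strand (CACGT or CACGC when read on the other), the core that hypoxia-inducible factors bind.
Pgk1, chrX:106186850-106187099, plus strand: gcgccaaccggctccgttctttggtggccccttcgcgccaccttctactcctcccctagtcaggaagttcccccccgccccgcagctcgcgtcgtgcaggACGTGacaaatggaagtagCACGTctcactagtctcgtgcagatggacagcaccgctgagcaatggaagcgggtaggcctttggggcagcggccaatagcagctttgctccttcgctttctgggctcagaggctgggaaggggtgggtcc
P4ha1, chr10:59323046-59323295, plus strand: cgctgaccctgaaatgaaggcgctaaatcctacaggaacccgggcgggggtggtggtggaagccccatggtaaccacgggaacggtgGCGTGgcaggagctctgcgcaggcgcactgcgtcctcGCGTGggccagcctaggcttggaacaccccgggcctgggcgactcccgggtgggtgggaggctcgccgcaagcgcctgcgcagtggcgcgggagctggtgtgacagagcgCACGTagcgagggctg
Tpi1, chr6:124814159-124814408, minus strand: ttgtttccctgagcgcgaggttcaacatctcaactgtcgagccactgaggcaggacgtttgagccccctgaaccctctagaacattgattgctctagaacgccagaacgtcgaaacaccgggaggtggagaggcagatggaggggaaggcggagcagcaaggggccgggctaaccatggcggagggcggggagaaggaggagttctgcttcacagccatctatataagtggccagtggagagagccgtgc
Pgk1 holds 2 matches, P4ha1 holds 3 and Tpi1 holds 0 in this window. Of the 28 genes, 26 had a promoter in the RefSeq table, and 19 of these (73.1%) held at least 1 match. The motif is short and common: 38.6% of all 32851 promoters held it, and 56.0% of the 11361 promoters matched to tested genes. A match is a description of the letters and not a bound site.

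Sterol synthesis and interferon genes also lay above 0 for the most part, with 0 edgeR calls in either list. In the sterol list, 20 of 21 genes were above 0, with a median log2 fold change of 0.30, but 1 gene, Sc5d, was wholly above WT, and the list score of WT 1 (0.22) lay among those of the Light mice (0.25, 0.13 and 0.08) and apart from WT 2 and WT 3 (-0.36 and -0.32). A list score is the mean over the list of log2 CPM centred on each gene's mean in the mice compared. In the interferon list 21 of 24 genes were above 0, with a median of 0.37, and 6 were wholly above WT (25%, against 8.13% of all genes). An unadjusted edgeR p under 0.05 was found for 2 sterol genes (9.52%) and 4 interferon genes (16.7%), all higher, against 4.75% of all genes. DESeq2 called 1 of these genes, Ifit1. Ifit1, an antiviral effector, was at 11.4, 5.26 and 4.67 CPM in WT and 16.7, 19.03 and 15.1 CPM in Light mice, a log2 fold change of 1.24 (95% interval 0.59 to 1.89). Tap1, a peptide transporter of antigen presentation, had 0.45 and Rsad2, which encodes viperin, 1.08. Again WT 1 had the highest WT value of Ifit1.

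Respiratory chain genes split by genome. Of 41 nuclear oxidative phosphorylation genes, 35 lay above 0, with a median log2 fold change of 0.13, and 40 had an interval inside 2-fold. All 10 tested genes of the mitochondrial genome lay below 0, with a median of -0.37. mt-Nd1, a complex I subunit, was at 349, 548 and 606 CPM in WT mice and 323, 394 and 370 CPM in Light mice, so WT 1 again lay within the Light range. mt-Cytb, a complex III subunit, was wholly lower in Light mice, with a log2 fold change of -0.28 (95% interval -0.54 to -0.02) and 694, 814 and 887 CPM in WT against 623, 680 and 668 CPM in Light mice. It was the only 1 of the 10 genes wholly below WT (10%), near the 7.92% of all genes. The mitochondrial genes made up 0.29% to 0.42% of each library. No gene of either list passed the edgeR test or DESeq2, and an unadjusted edgeR p under 0.05 was found for 8 nuclear genes higher and 1 lower and for 7 mitochondrial genes lower. Of all genes, 4.75% were higher and 5.26% lower at that p. The metallothionein gene Mt1, a metal-binding stress protein, was at 1704, 736 and 781 CPM in WT and 1870, 2367 and 2458 CPM in Light mice, a log2 fold change of 1.06 (95% interval 0.31 to 1.80).

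Markers of cells other than endocrine cells differed between the libraries by more than most gene groups. All 13 endothelial genes were above 0 in Light mice, with a median log2 fold change of 0.80, and 7 of them were wholly above WT, against 8.13% of all genes. None passed the edgeR test or DESeq2, and 8 had an unadjusted edgeR p under 0.05, against 4.75% of all genes with a higher level. The endothelial list summed to 361, 150 and 204 CPM in WT and 401, 382 and 507 CPM in Light mice. Egfl7, a secreted endothelial factor, was at 16.3, 7.39 and 10.9 CPM in WT and 21.2, 19.5 and 27.5 CPM in Light mice, a log2 fold change of 0.98 (95% interval 0.41 to 1.54). Kdr, the VEGF receptor of endothelium, was at 64.2, 18.9 and 27.0 CPM in WT and 65.7, 65.0 and 75.1 CPM in Light mice, with WT 1 just below the lowest Light mouse.

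Acinar genes were mixed. Of 18, 12 were above 0, 7 wholly above WT (8.13% of all genes were) and 1 wholly below (7.92%), with a median log2 fold change of 0.73. None passed the edgeR test or DESeq2, and 9 higher and 2 lower genes had an unadjusted edgeR p under 0.05, against 4.75% and 5.26% of all genes. Cela1, an elastase, was at 1482, 240 and 367 CPM in WT and 2222, 3456 and 3698 CPM in Light mice, a log2 fold change of 2.17 (95% interval 0.91 to 3.42). Try4, a trypsin gene of a family of near-identical copies, was at 297, 110 and 208 CPM in WT and 437, 704 and 850 CPM in Light mice. Prss2, another trypsin gene, had a log2 fold change of 0.19. Bhlha15, a transcription factor of secretory cells that acinar cells use, was at 30.3, 38.1 and 39.4 CPM in WT and 30.2, 16.95 and 22.04 CPM in Light mice, a log2 fold change of -0.63 (95% interval -1.04 to -0.22). The whole list took between 0.975% and 2.59% of the counts, with WT 3 (2.14%) inside the Light range (1.45% to 2.59%). In the duct list, 9 of 14 genes were above 0, and Spp1, which encodes osteopontin, was at 659, 584 and 695 CPM in WT and 1002, 2862 and 1467 CPM in Light mice. The part of exocrine carry-over in other results was not tested.

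Stromal genes lay below 0 for the most part, and here the WT libraries were far apart. Of 15 stellate and fibroblast genes, 13 were below 0, with a median log2 fold change of -1.19, yet 0 lay wholly below WT, against 7.92% of all genes. None passed the edgeR test. An unadjusted edgeR p under 0.05 was found for 7 lower and 1 higher of them, against 5.26% and 4.75% of all genes. Col1a1, a fibrillar collagen, was at 36.3, 350 and 231 CPM in WT mice and at 38.5, 33.3 and 112 CPM in Light mice, so WT 1 was as low as Light 1 and Light 2. The list summed to 179, 1196 and 834 CPM in WT and 208, 186 and 414 CPM in Light mice. The extracellular matrix list had a median of -0.63, with 21 of 27 below 0 and 0 wholly apart, against 16.0% of all genes. None passed the edgeR test, and 9 lower and 1 higher had an unadjusted edgeR p under 0.05. Rgs5, a pericyte gene of the same stromal list, differed, at 13.9, 15.3 and 12.5 CPM in WT and 22.01, 19.3 and 22.9 CPM in Light mice, a log2 fold change of 0.62 (95% interval 0.29 to 0.95).

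Macrophage genes were below 0 in 12 of 15, with a median of -0.66, and 3 were wholly below WT, against 7.92% of all genes. None passed the edgeR test or DESeq2, and 1 higher and 8 lower genes had an unadjusted edgeR p under 0.05, against 4.75% and 5.26% of all genes. C1qa, a complement gene of resident macrophages, was at 26.4, 47.5 and 41.4 CPM in WT and 25.4, 19.9 and 23.5 CPM in Light mice. Csf1r, the receptor that macrophages depend on, had a log2 fold change of -0.10 and Cd68, a lysosomal marker, of 0.40, above the list's median. Of the lymphocyte, adipocyte and Schwann lists, 3 of 13, 1 of 8 and 6 of 12 genes were expressed enough to be tested, with medians of -0.03, 0.97 and -0.28. The 1 adipocyte gene was Fabp4, which endothelium also expresses. As for the beta cell genes, the endothelial and stromal list scores of WT 1 (0.17 and -0.90) were nearer to the Light mice than those of WT 2 (-0.99 and 1.17) and WT 3 (-0.44 and 0.90). The acinar score was instead nearest to the Light mice in WT 3 (-0.03, against -0.58 in WT 1 and -0.80 in WT 2). The part of these cells in the beta cell result was not tested.

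**Figure D3:**
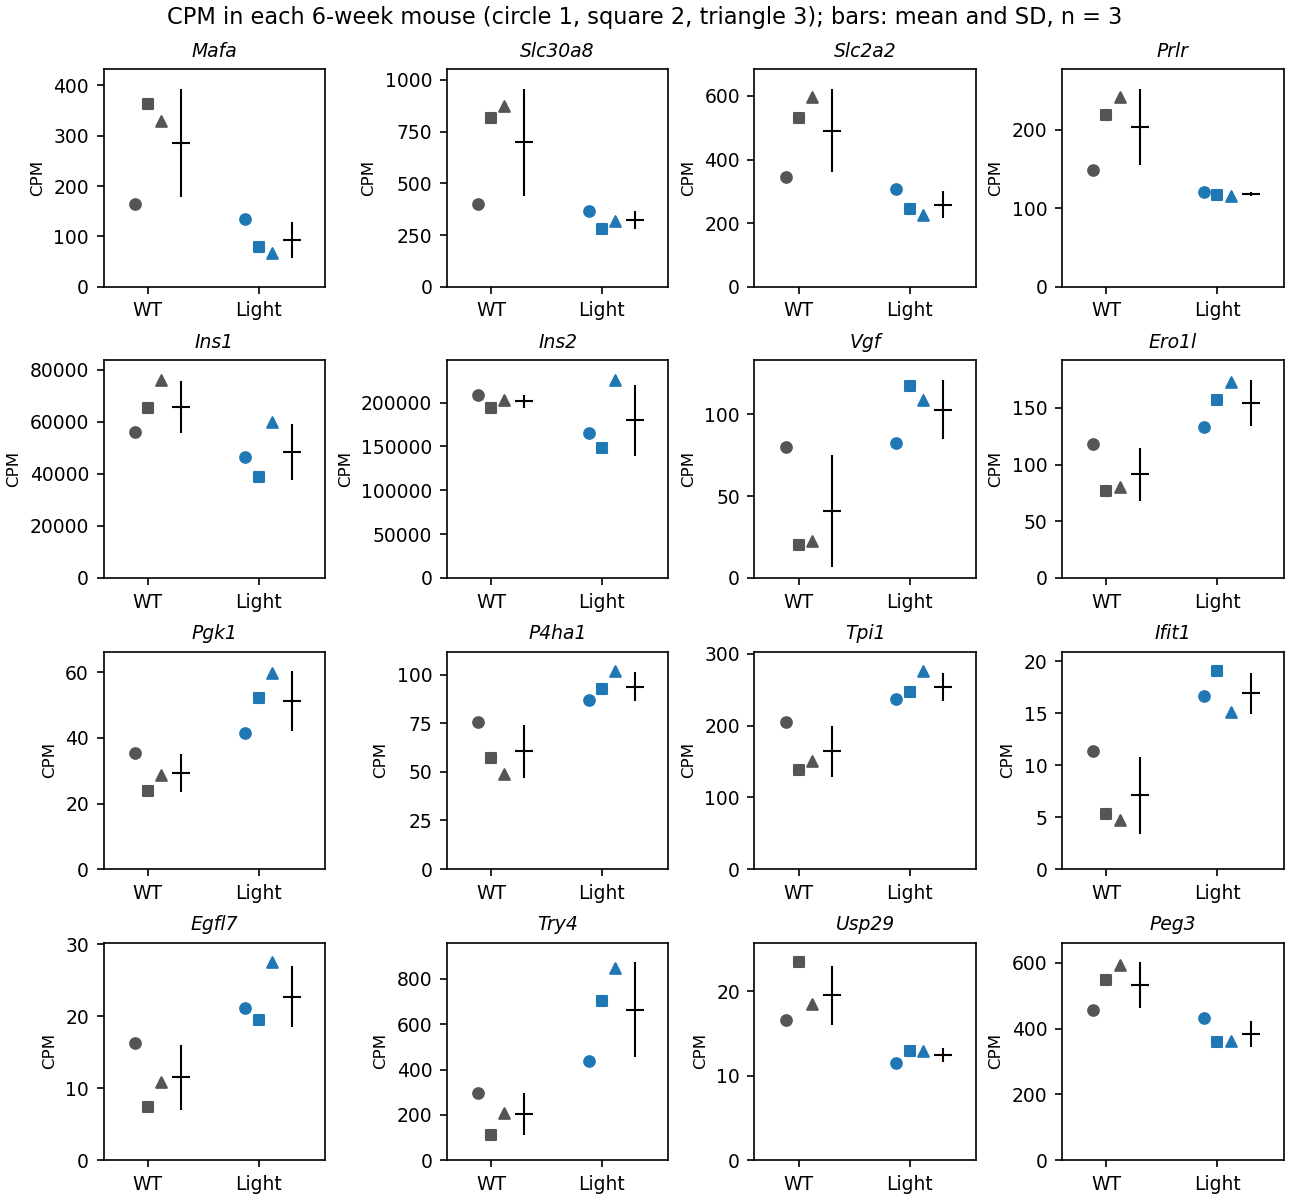
CPM of 16 genes in each WT (grey) and Light (blue) mouse at 6 weeks, with circle, square and triangle for mice 1, 2 and 3 and bars for mean and SD (n = 3). For Mafa, Slc30a8, Vgf, Egfl7 and Ifit1 the WT circle, WT 1, lies nearest to the Light mice.

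Among imprinted genes, the family to which Nnat belongs, 7 of 30 tested, Nnat included, were wholly below WT and 2 wholly above, against 7.92% and 8.13% of all genes. Of these 30, 1 passed the edgeR test, Nnat itself, and 24 had an interval inside 2-fold. Usp29, a paternally expressed gene of the Peg3 domain on chromosome 7, was at 16.7, 23.4 and 18.5 CPM in WT and 11.5, 12.9 and 12.9 CPM in Light mice, a log2 fold change of -0.66 (95% interval -0.97 to -0.34, edgeR adjusted p = 0.431). Peg3, its neighbour, was at 457, 548 and 592 CPM in WT and 431, 359 and 362 CPM in Light mice, a log2 fold change of -0.47 (95% interval -0.81 to -0.13). Zim1, a maternally expressed gene of the same domain, had -0.69. All 3 were wholly below WT. Usp29 and Peg3 start close together on opposite strands, so without strand their reads may not be fully separable. Outside this domain, Commd1 had 0.36 and Grb10, a growth suppressor, 0.33, both wholly above WT.

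Growth signalling genes lay below 0 more often than above. In the Wnt and growth factor list 18 of 26 genes were below 0, with a median log2 fold change of -0.25. Of the 26, 6 were wholly below WT (7.92% of all genes were) and 2 wholly above (8.13%). None passed the edgeR test or DESeq2, and 1 higher and 6 lower genes had an unadjusted edgeR p under 0.05, against 4.75% and 5.26% of all genes. Irs2, the insulin receptor substrate that sustains beta cell mass, was at 50.8, 53.9 and 52.7 CPM in WT and 46.2, 34.7 and 27.0 CPM in Light mice, a log2 fold change of -0.54 (95% interval -0.89 to -0.19). Insr, the insulin receptor, had -0.51 and Wnt4 -0.66. Met, the hepatocyte growth factor receptor, was higher in each Light mouse, at 24.7, 27.3 and 23.9 CPM in WT and 38.3, 38.8 and 33.0 CPM in Light mice, a log2 fold change of 0.54 (95% interval 0.20 to 0.87). For Irs2 and Met the WT mice, WT 1 included, lay close together.

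Housekeeping and stress lists had medians near 0. All 50 ribosomal protein genes tested had an interval inside 2-fold, with a median log2 fold change of 0.08, and the median was 0.09 over 14 heat shock genes, 0.03 over 19 oxidative stress genes and 0.13 over 21 inflammation genes. An interval inside 2-fold was found for 12 heat shock, 12 oxidative stress and 4 inflammation genes. The inflammation genes ranged from -2.08 to 1.32 and were not closely bounded. The oxidative stress genes went both ways. At an unadjusted edgeR p under 0.05, 4 were higher and 3 lower, against 4.75% and 5.26% of all genes. Wholly above WT were 4 and wholly below 1, against 8.13% and 7.92% of all genes, and without WT 1 there were 2 calls each way. Immediate early genes, which answer to handling and to stimulation within minutes, had a median of -0.09, and Fos was at 2.90, 17.7 and 13.6 CPM in WT and 5.98, 6.05 and 4.27 CPM in Light mice. The 29 genes that the study names for its islet RNA-seq had a median of 0.04 and ranged from -1.92 to 0.98. The study names some as higher and some as lower in Heavy islets, so this median mixes both. edgeR called 0 of the 29, where it called 0.0121% of all genes, with a smallest adjusted p of 0.486. Of the 29, 2 had an unadjusted edgeR p under 0.05 and 4 did not overlap, against 10.0% and 16.0% of all genes. The study's list of genes tied to histone deacetylases, chosen by the study on some of these mice and so not independent of them, had a median of -0.04 over 187 tested genes. Of these 187, 9 lay wholly above WT and 9 wholly below, or 4.81% each way, against 8.13% and 7.92% of all genes. Without WT 1 the median was -0.16, 128 of 187 genes were below 0, and edgeR called 8 lower and 0 higher, where it called 2.48% of all genes either way.

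**Figure D4:**
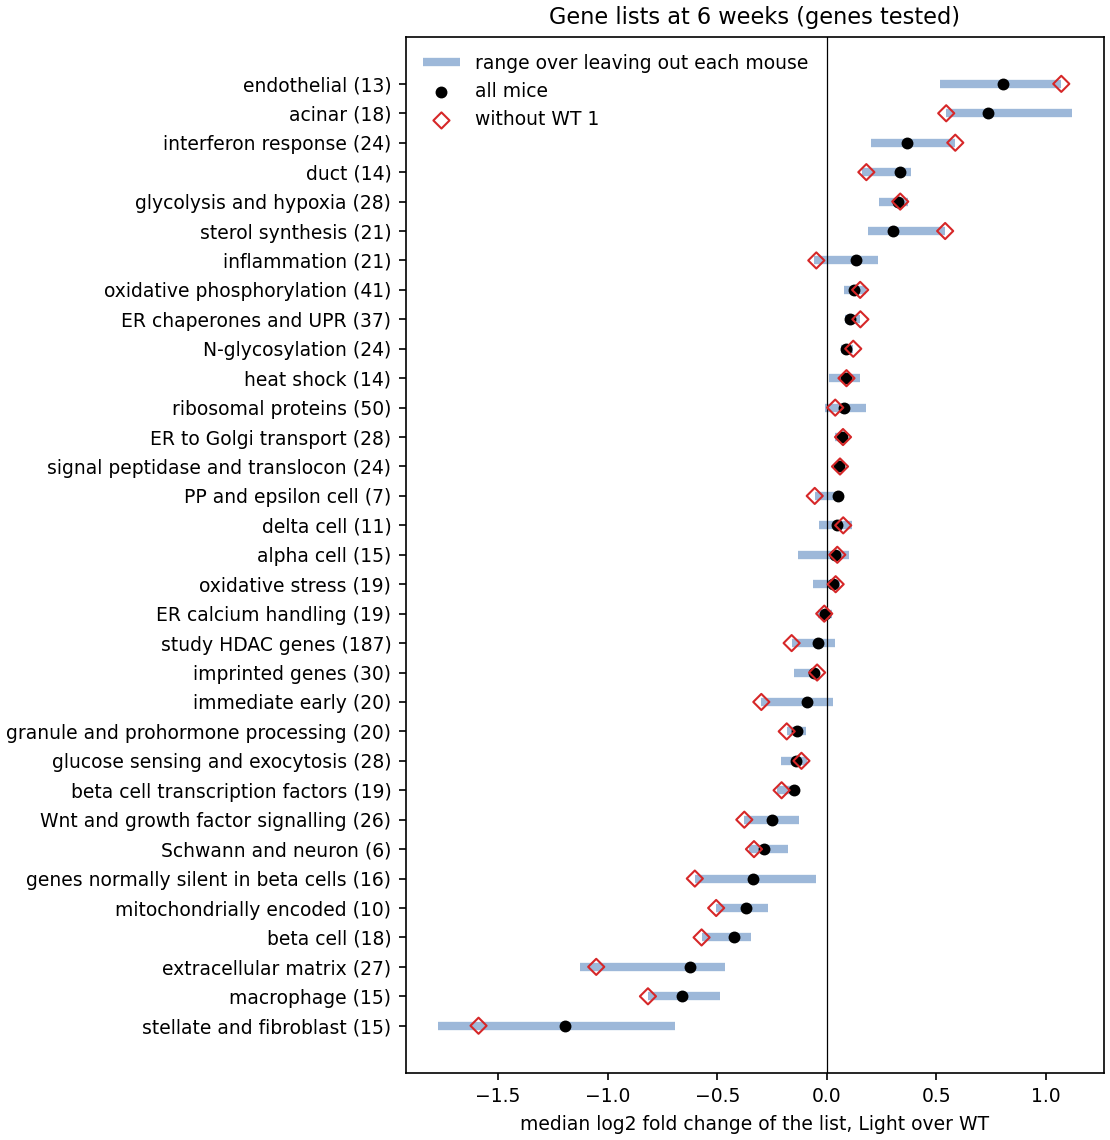
Median log2 fold change of Light over WT for each gene list with at least 5 tested genes (number in brackets). Black points use all mice, red diamonds leave out WT 1, and the bars span the fits that each leave out 1 Light or WT mouse. The endothelial list lies at 0.80 and the stellate and fibroblast list at -1.19, and the ER lists lie near 0 with short bars.

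The genes with the smallest p outside the Nnat locus were drawn from many functions. Fam57b, a ceramide synthesis gene, was at 97.3, 71.7 and 68.8 CPM in WT and 122, 125 and 142 CPM in Light mice, a log2 fold change of 0.71 (95% interval 0.43 to 0.98). Stom, which encodes the membrane protein stomatin, was at 8.20, 7.30 and 6.34 CPM in WT and 13.2, 25.3 and 17.9 CPM in Light mice, a log2 fold change of 1.36. Gm26917, a long noncoding gene model, was at 299, 374 and 464 CPM in WT and 219, 225 and 208 CPM in Light mice, a log2 fold change of -0.80. Th, tyrosine hydroxylase, was at 40.1, 55.2 and 60.1 CPM in WT and 35.2, 31.6 and 29.9 CPM in Light mice, a log2 fold change of -0.68. Each had an edgeR adjusted p of 0.431, the lowest after the 2 called genes. An unadjusted p under 0.05 was found for 1648 genes, 10.0% of those tested, 782 higher and 866 lower in Light islets. Without a filter on low counts edgeR called 734 of 31884 genes, 245 higher and 489 lower, and 715 of these had passed the filter and been tested here as well. DESeq2 called 28 genes at an adjusted p under 0.05, 14 higher and 14 lower in Light islets, among them Fam57b, Stom, Gm26917, Th, Ero1l, Ifit1, Pgk1, P4ha1, Tpi1 and Eno1.

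Leaving out WT 1 changed the count of called genes from 2 to 415, of which 201 were higher and 214 lower in Light islets (2.48% of 16704 genes, edgeR adjusted p under 0.05). Leaving out any other mouse gave 1 or 2. The 415 rest on WT 2 and WT 3 as the whole WT group. Setting aside the WT mouse nearest to the Light mice widens the difference between the groups. The counts and adjusted p of this fit, here and in the next paragraph, may therefore be too favourable and are a description. In that fit, with WT 1 set aside for its place among the Light mice, Mafa had a log2 fold change of -1.89 (edgeR adjusted p = 0.0189), Slc30a8 of -1.40 (0.0168) and Prlr of -0.96 (0.0401), and these 3 of the 18 beta cell genes passed. Vgf had 2.27 (edgeR adjusted p = 0.000937). Of 28 glycolysis and hypoxia genes 11 passed, all higher in Light mice, among them Pfkp at 1.15, P4ha1 at 0.82 and Tpi1 at 0.81. Among ER stress genes Ddit3, which encodes CHOP, had 1.38 and Trib3 1.29, both past the threshold there (edgeR adjusted p = 0.00342 and 0.00673).

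The same fit called 6 of 24 interferon genes and 3 of 13 endothelial genes higher in Light islets, where 2.48% of all genes were called either way. It called 6 of 15 stellate and fibroblast genes and 9 of 27 extracellular matrix genes lower. Of 18 acinar genes it called 7 higher and 1 lower. It called 0 of 24 signal peptidase and translocon genes, 0 of 24 N-glycosylation genes, 0 of 41 nuclear oxidative phosphorylation genes and 0 of 50 ribosomal protein genes, with a smallest edgeR adjusted p of 0.0587, 0.0777, 0.0629 and 0.165. At 2.48% over all genes, few calls or none would fall in lists of this size, so these counts of 0 are near that share. The fit did call 1 of 28 ER-to-Golgi genes, 4 of 37 ER chaperone and UPR genes and 3 of 21 sterol genes higher. It called 1 chaperone gene, 1 of 19 ER calcium genes and 4 of 9 mitochondrial genome genes lower. Nnat (edgeR adjusted p = 3.07e-05) and Usp29 (-0.76, edgeR adjusted p = 0.0279) passed as well. Without WT 1 the list median was 1.07 for endothelial, 0.59 for interferon, 0.54 for sterol, -1.05 for extracellular matrix and -1.59 for stellate and fibroblast genes, each farther from 0 than with all mice. It was 0.54 for acinar and 0.18 for duct genes, nearer to 0. Other mice moved these medians as well. Without WT 2 they were 0.51 for endothelial, -0.69 for stellate and fibroblast and -0.13 for Wnt and growth factor genes, and without WT 3 they were 1.12 for acinar, 0.19 for sterol and -0.05 for genes normally silent in beta cells. Without Light 2 the interferon median was 0.20, and without Light 3 that of duct genes was 0.16 and that of extracellular matrix genes -1.12. All of these kept the sign they had with all mice. Without WT 1 the median of the alpha cell list was 0.05 and that of the ER-to-Golgi list 0.07. The alpha cell median turned sign without Light 3 (-0.13) and without WT 3 (-0.08).

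At 3 weeks, other mice of the same genotypes were measured. There 3 Light males were set against 4 WT mice (3 males and 1 female), and the labels do not say how Light was told from Heavy there. The study describes the younger Nnat+/-p islets as parting into Light-like and Heavy-like by transcriptome, ahead of any visible phenotype, so this group may have been set from the same values. Its counts and p-values, and those of the interaction between ages, may then be too favourable and are given as a description. At 3 weeks 201 of 16257 genes (1.24%) passed the edgeR test, 84 higher and 117 lower in Light islets. Some list medians were near 0 at 3 weeks, others had the sign of 6 weeks and some the opposite sign. The median log2 fold change at 3 weeks was -0.00036 in the beta cell list, -0.07 in the endothelial list and -0.08 in the glycolysis and hypoxia list. In the last of these, 21 of 27 genes were below 0 at 3 weeks. The interferon list was at -0.12 (16 of 23 genes below 0) and the PP and epsilon cell list at -0.25 (6 of 8). Both of these medians were above 0 at 6 weeks. Mafa had -0.16 at 3 weeks, Slc30a8 -0.02, Pgk1 -0.10 and Usp29 0.07. The acinar list was above 0 at both ages (median 0.53 at 3 weeks, 15 of 17 genes). Below 0 at both ages were the stellate and fibroblast list (-0.33 at 3 weeks, 15 of 15 genes below 0), the extracellular matrix list (-0.31, 26 of 27), the macrophage list (-0.19, 15 of 16), the Schwann and neuron list (-0.30) and the genes normally silent in beta cells (-0.31). The signal peptidase and translocon list was at 0.06 at both ages, with 23 of 24 genes above 0 at 3 weeks. Over 15758 genes tested at both ages, without Nnat and Gm23134, 50.4% had the same sign, and Pearson's r across genes was 0.07, as a description of genes that are not independent.

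The difference between the ages was itself tested as an interaction over all 19 mice. At an edgeR adjusted p under 0.05 it called 36 of 17107 genes (0.210%), and these were led by immediate early genes. Egr1 had a log2 fold change of -5.29 at 3 weeks and -0.01 at 6 weeks, and Fos of -5.35 and -1.06. Of 20 immediate early genes, 14 passed at 3 weeks, all lower in Light islets, and 6 of 21 passed the interaction. No gene of the beta cell list passed it (0 of 18), nor did one of the 28 glycolysis and hypoxia genes or the 13 endothelial genes. An unadjusted interaction p under 0.05 was found for 9, 15 and 6 genes of these lists, against 12.1% of all genes. Nnat was lower at both ages, with -8.93 at 3 weeks.

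**Figure D5:**
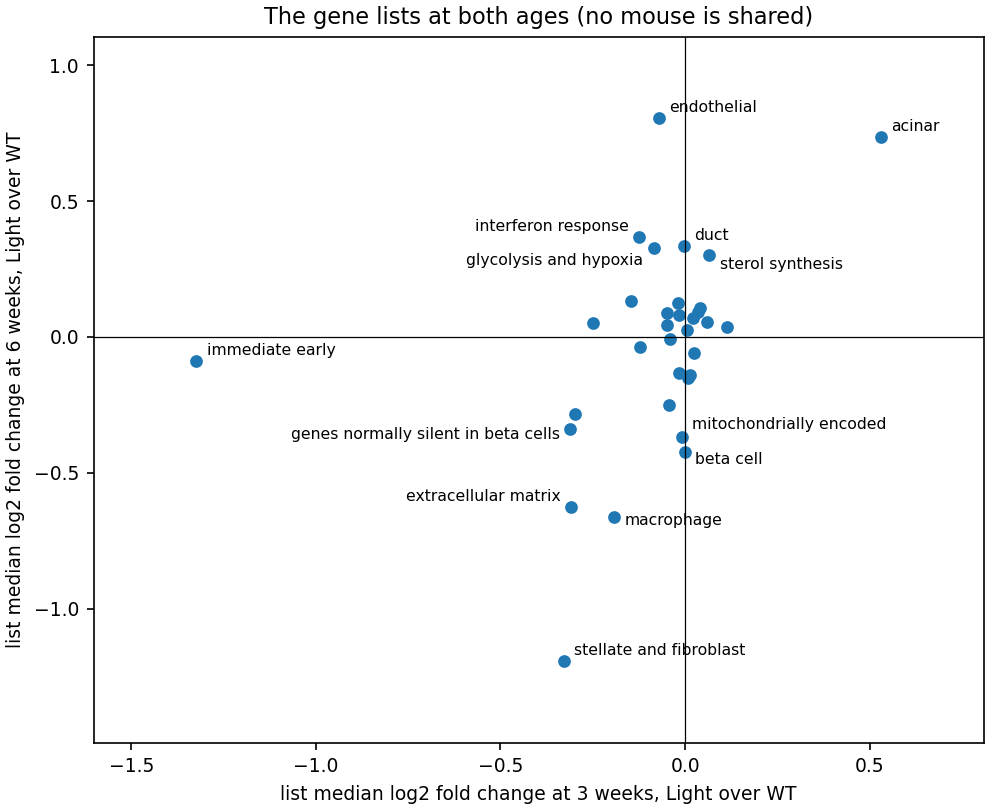
Median log2 fold change of Light over WT in each gene list, at 3 weeks on the horizontal and at 6 weeks on the vertical axis. The beta cell list lies at -0.42 at 6 weeks and near 0 at 3 weeks, the immediate early list at -1.32 at 3 weeks, and the acinar list is above 0 at both ages.

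Heavy islets of the same age, which share the WT and Light mice with the comparison, are set beside these values without a test of likeness. Mafa was at 185, 437 and 386 CPM in Heavy mice, a log2 fold change of 0.23 over WT, where Light had -1.61. Slc2a2 had -0.14 in Heavy and -0.93 in Light islets over WT. Pgk1 was at 30.2, 25.2 and 21.2 CPM in Heavy mice, a log2 fold change of -0.20 over WT against 0.80 in Light. The median of the beta cell list over WT was -0.10 in Heavy and -0.42 in Light islets, and that of the endothelial list -0.64 and 0.80. Not every list parted in this way. In the same order, the median was 0.70 and 0.735 in the acinar list and 0.95 and 0.33 in the duct list. It was -0.18 and -0.14 in the glucose sensing and exocytosis list, and -0.18 and -0.13 in the granule and prohormone processing list. Th had -0.65 in Heavy and -0.68 in Light islets over WT.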

How the data were processed

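RNA was sequenced from pancreatic islets with SMART-Seq v4 and Nextera DNA Flex libraries, which do not mark strand. The authors deposited 1 table of raw read counts per gene for each age, made with the snakePipes RNA-seq pipeline on GRCm38.p6, per the labels and the study's methods. The aligner, counter and strand setting are not given in the sources used here. Gene names and positions came from GENCODE M21 (55450 of 55450 identifiers found).

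Counts of all 9 six-week mice were fitted with edgeR 4.0.16 (R 4.3.3), 1 mean per group, after filterByExpr and TMM scaling, and Light minus WT was tested by the quasi-likelihood test with Benjamini-Hochberg adjustment (threshold 0.05). The difference between ages was an interaction in a fit of all 19 mice. Intervals are 95% Wald intervals from the t distribution. Log2 CPM used a prior count of 2, and CPM scale each library to 1000000 counts. The script was tested on simulated data. The labels call the mice biological replicates, and the smallest exact two-sided permutation p for 3 against 3 is 0.1. Promoters came from RefSeq tables.

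Genes and lists were chosen with earlier results of these data known. The genes named are those at the Nnat locus, the first 3 members of each list, the 10 higher and 10 lower genes of smallest p without overlap and at least 10 counts, up to 3 members of each list each way without overlap, and the genes the study names. Aldoa, Car9, Ddit3, Eno1, Gapdh, Gpi1, Pfkp, Pgam1, Trib3, Ucn3 and Zim1 fall outside this rule and were chosen after their values were seen. Alternatives were scaling, filters, a replicate block, DESeq2 1.42.0, thresholds and leaving out each mouse.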

Additional observations from a re-analysis of the deposited data

Results flagged for a closer look

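The difference of Light over WT between 6 and 3 weeks passed the edgeR interaction test at an adjusted p under 0.05 for 36 genes, and 8 of these are named here. The difference, 6 weeks minus 3 weeks on the log2 scale, was 5.25 for Egr1 (adjusted p = 1.84e-06), 4.27 for Fos (adjusted p = 0.00718) and 1.55 for Jun (adjusted p = 0.00353), all immediate early genes that were lower in Light islets at 3 weeks. It was 0.70 for Fam57b, -0.86 for Stard13, -0.63 for Map3k5 and -0.99 for Bhlha15, with adjusted p between 0.0253 and 0.0464. For Gbp4, an interferon-induced GTPase, it was 3.31 (adjusted p = 0.0274), and Gbp4 was too low to be tested at 3 weeks alone. The 3-week groups hold other mice, of both sexes in WT, and the Light group of that age may have been set from these transcriptomes, so these p-values may be too small.

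Among the 3-week WT mice, the score of the sterol synthesis list had 1 mouse far from the others, at -0.30 against 0.02 to 0.05, with a gap of 0.916 of the group's range, past Dixon's limit for 4 mice. In all, 36 such values were looked at, and chance alone would mark about 1 in 20.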

How the results depend on the processing

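The count of 2 called genes became 734 with no filter on low counts, 28 with DESeq2, 1 at an adjusted p under 0.01 and 0 with at least 10 counts in every mouse, where Nnat is no longer tested. It ranged from 1 to 415 when each mouse was left out, with 415 without WT 1. Under a replicate block it was 1. The mice share only a number: deviations of same-numbered Light and WT mice correlated at 0.17, -0.02 and 0.11. The count of genes without overlap (2642) ranged from 2660 to 6662 (with fewer mice in a group, fewer values need to be apart), the ratio of WT to Light spread (1.05) from 0.695 to 1.41, and the interaction count (36) from 19 to 646, the last without 6-week WT 1. That count was 613 with no filter, 18 in males alone, 80 with Light and WT mice alone and 172 with DESeq2. The cause of these shifts was not tested. Nnat stayed between -8.18 and -7.11 with each mouse left out.

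List medians kept within the spread of mice in 537 refits and not in 21. With total counts as the scale, which moves the median of all genes from 0.00 to 0.045, they were -0.087 (granule), 0.13 (N-glycosylation), 0.12 (ER to Golgi) and 0.037 (ER calcium). With no filter they were 1.46 (lymphocyte), -0.54 (Schwann) and 0.27 (adipocyte), and with at least 10 counts in every mouse -0.84 (lymphocyte). Over members of at least 100 counts they were -0.38 (macrophage) and -0.026 (Schwann). With each mouse left out they ranged from -0.13 to 0.10 (alpha), -0.35 to -0.18 (Schwann), -0.18 to -0.097 (granule), 0.036 to 0.074 (ER to Golgi), -0.040 to 0.022 (ER calcium) and -0.15 to -0.044 (imprinted).

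In all, 8 named genes turned sign in such a fit, none of them called. The ranges were -0.051 to 0.37 for Gcg, -0.082 to 0.36 for Ttr and -0.037 to 0.39 for Hhex (turned without Light 3), -0.69 to 0.35 for Sox9, -0.45 to 0.44 for Ldha, -0.87 to 0.24 for Wnt7b and -0.84 to 0.20 for Cdk6 (turned without WT 3), and -0.24 to 0.36 for Egr1 (turned without WT 2). Of the other refits of named genes, 145 passed the threshold that the reported fit did not pass (77 with no filter, 51 without WT 1, 17 with DESeq2), and 6, all of Gm23134, no longer passed it. Depth limits low genes: 46.8% of those under 100 counts had an interval inside 2-fold.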
